A study of Mus musculus with 20 samples.

Results

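The CC chemokines Ccl2, Ccl3, Ccl4, Ccl5, Ccl6, Ccl7, Ccl9, Ccl17, Ccl20 and Ccl24 were followed in mouse liver 4 hours after IL-1β, as the 10 genes of 37681 in each count table whose symbol was one of these names. Each symbol matched 1 Ensembl identifier. CC chemokines are small secreted proteins with a pair of neighbouring cysteines near their start, and they attract leukocytes through G protein-coupled receptors of the Ccr family. IL-1β is an inflammatory cytokine that acts through the IL-1 receptor and NF-κB, and many chemokine genes are known targets of that pathway in macrophages, endothelial cells and hepatocytes. Within the family, Ccl2 and Ccl7 attract monocytes through Ccr2, Ccl3 and Ccl5 bind Ccr1, and Ccl6 and Ccl9 are rodent ligands of Ccr1. Ccl20 is the ligand of Ccr6, Ccl17 of Ccr4 and Ccl24, also called eotaxin-2, of Ccr3.

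The 10 donors were male mice aged 12 weeks, labelled C57/BL6 as strain and C57/B6J in the protocol, for which the labels name no transgene or deleted gene. IL-1β was injected intraperitoneally into 5 of them at 20 µg/kg (mice ILB_9577, ILB_9578, ILB_9579, ILB_9582 and ILB_9583), and the other 5 received saline and are labelled untreated (mice UNT_9574, UNT_9575, UNT_9576, UNT_9580 and UNT_9584). Livers were taken 4 hours later, and the RNA of each liver was sequenced on Illumina and on Ion Torrent and aligned by 3 methods (GSNAP, STAR, and STAR followed by Bowtie2), which gives 6 tables of 10 libraries. The Illumina STAR table was taken as the main table, and the other 5 are repeat measurements of the same mice, not further replicates.

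Library totals were 10568530 to 10655860 reads for treated and 10887640 to 11046256 reads for saline mice in the Illumina STAR table, and 10568530 to 16439683 over all tables. Each table was scaled separately by the authors, so treated and saline mice were compared within a table. UNT_9584 stood apart: the deviations of its Illumina and Ion Torrent libraries from their group means correlated at 0.249 across genes with STAR, against 0.562 to 0.722 for the other 9 mice. Genes are not independent replicates. The same 5 members were called without this mouse. The liver source was visible in albumin, the most abundant of the hepatocyte markers examined. In bulk liver RNA, fewer cells of a type and less RNA per cell cannot be told apart. Read counts below are listed in the order of the mice given above, and levels are CPM, the read count scaled to a fixed library size after TMM (trimmed mean of M values) normalization.

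Promoter sequences are shown for the called members in the RefSeq promoter table used here, because NF-κB and AP-1, factors known to act downstream of the IL-1 receptor, bind short DNA motifs that often lie near gene starts. The table (assembly GRCm38.p6) holds Ccl3, Ccl6, Ccl9, Ccl17 and Ccl20. The 250 bases before the RefSeq start are printed 5′ to 3′ on the gene's strand. Each run matched the NCBIM37 genome of the count tables exactly, at chr1:83113091-83113340 on the plus strand for Ccl20, at chr11:83392139-83392388 on the minus strand for Ccl9 and at chr11:83406590-83406839 on the minus strand for Ccl6. Capitals mark matches, on either strand, to the NF-κB consensus or to the AP-1 motif TGANTCA.
Ccl20: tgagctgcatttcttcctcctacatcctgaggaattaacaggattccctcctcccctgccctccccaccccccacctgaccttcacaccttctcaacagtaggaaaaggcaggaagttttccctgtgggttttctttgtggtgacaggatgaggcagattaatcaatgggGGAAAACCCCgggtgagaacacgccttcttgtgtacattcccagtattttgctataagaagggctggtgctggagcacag
Ccl9: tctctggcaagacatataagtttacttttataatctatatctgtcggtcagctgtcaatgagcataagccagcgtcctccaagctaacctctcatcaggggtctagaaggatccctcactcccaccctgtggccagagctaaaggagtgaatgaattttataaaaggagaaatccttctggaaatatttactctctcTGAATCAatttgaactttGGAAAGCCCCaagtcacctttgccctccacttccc
Ccl6: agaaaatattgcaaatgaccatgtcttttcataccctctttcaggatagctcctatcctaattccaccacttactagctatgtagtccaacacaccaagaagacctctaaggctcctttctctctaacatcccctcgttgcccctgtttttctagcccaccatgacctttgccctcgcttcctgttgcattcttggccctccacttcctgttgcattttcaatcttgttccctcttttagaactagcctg
The NF-κB match of Ccl20 lay 80 to 71 bases before the start, and that of Ccl9 lay 35 to 26 bases before it. Ccl9 also had an AP-1 match 53 to 47 bases before the start, which does not overlap the other. Ccl6 had no match to either motif in this window. Over the 5 member promoters, 2 had an NF-κB and 1 an AP-1 match, while 3.90% and 6.75% of the 32851 promoters in the table had one. The C/EBP motif TTNNGNAAT, which is not capitalised, was found in the promoter of Ccl3 and in 10.2% of all promoters. A match is a run of letters and not evidence of binding.

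Of the 10 members, 5 rose in treated livers, namely Ccl2, Ccl6, Ccl7, Ccl9 and Ccl20. Ccl5 and Ccl24 were tested and not called, and Ccl3, Ccl4 and Ccl17 had too few reads for the filter, which asked for 5 reads or more in at least 5 libraries of a table. The call is edgeR's quasi-likelihood test with Benjamini-Hochberg adjustment over the 13117 genes tested, at an adjusted p below 0.05. No tested member was called lower. Among all 13117 genes, 26.9% were called higher and 27.2% lower. The median log2 fold change was 3.09 over the 7 tested members and -0.01 over all tested genes. The members were chosen with earlier results of these data known. In each of the 5 called members every treated mouse lay above every saline mouse, as did 20.4% of the genes tested. The filter bears on these counts, because Ccl7 and Ccl20 reached 5 reads in treated mice alone and therefore had to differ to be tested, and Ccl2 reached 5 reads in 2 saline mice.

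**Figure D1:**
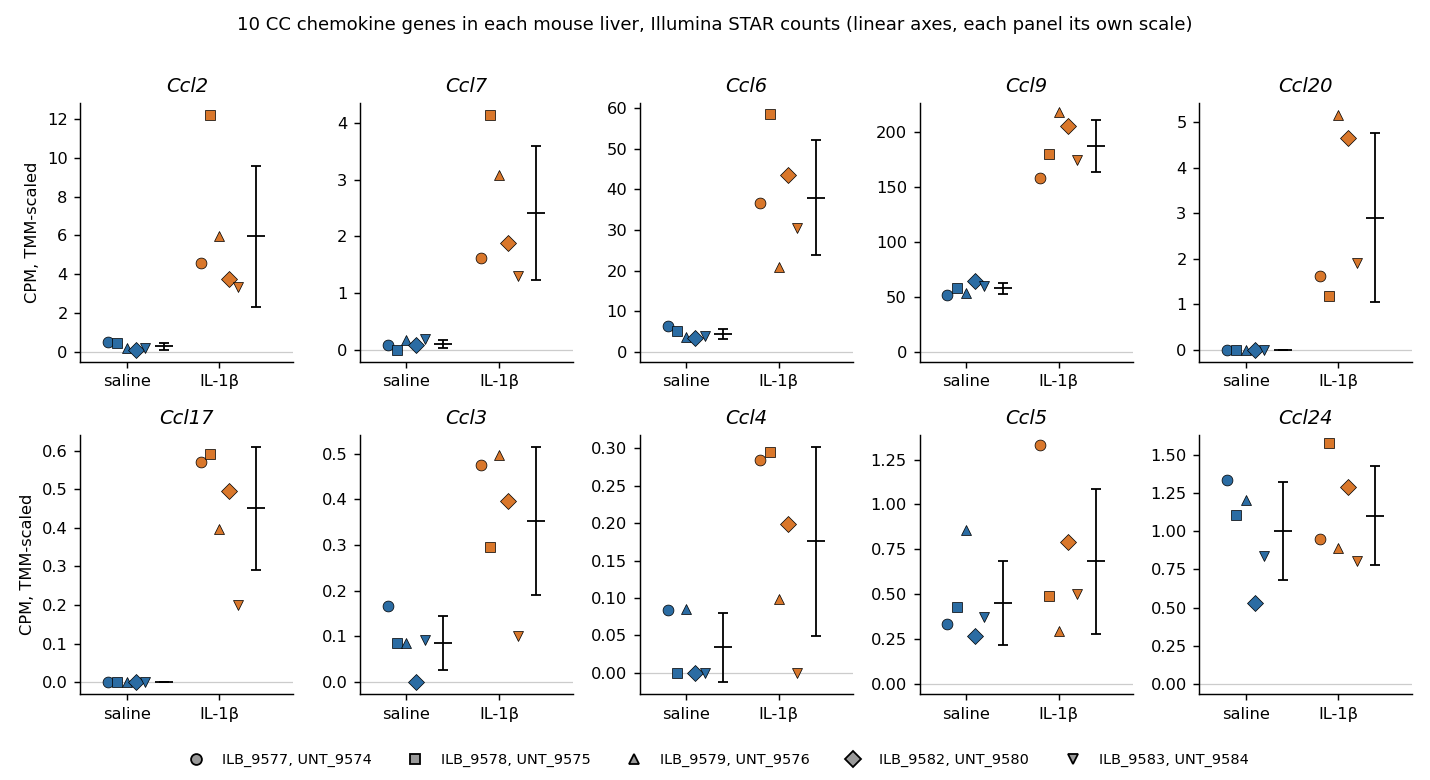
TMM-scaled CPM of the 10 members in each of 5 saline (blue) and 5 IL-1β-treated (orange) livers in the Illumina STAR table, on linear axes with a scale of their own in each panel. Symbols name the mouse and do not pair treated with saline mice, and bars give mean ± SD (n = 5). In the panels of Ccl2, Ccl7, Ccl6, Ccl9, Ccl20 and Ccl17 the groups do not overlap.

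Ccl2, the main monocyte chemoattractant, had 48, 124, 60, 38 and 33 reads in the treated mice and 6, 5, 2, 1 and 2 in the saline mice of the Illumina STAR table. The lowest treated mouse was above the highest saline mouse, and ILB_9578 held the most. The log2 fold change was 4.37 ± 0.48 (SE, n = 5 against 5), a 20.6-fold difference, with an edgeR adjusted p of 4.93e-06. Without ILB_9578 it was 3.93, and Ccl2 was still called.

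Ccl7, which shares the receptor Ccr2 with Ccl2, had 17, 42, 31, 19 and 13 reads in the treated mice and 1, 0, 2, 1 and 2 in the saline mice. Again no value overlapped and ILB_9578 was highest. Its log2 fold change was 4.38 ± 0.51 (SE), a 20.8-fold difference (edgeR adjusted p = 8.54e-06). Ccl2 (chr11:81849073-81850955) and Ccl7 (chr11:81859214-81861027) are neighbours on the plus strand of NCBIM37, 8.26 kb apart. The ratio of length-scaled Ccl7 to Ccl2 ran from 0.481 to 0.734 among treated mice, a 1.53-fold range, while the Ccl2 level itself varied 3.68-fold. The range of this ratio was wider in the other 5 tables, from 1.63-fold to 2.19-fold, where Ccl2 varied 3.55-fold to 5.36-fold. The Ccl2 and Ccl7 transcripts share 72.0% identity over 257 aligned bases.

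The genes that follow on the same stretch of chromosome 11 had few reads. Ccl11, 10.3 kb beyond Ccl7, had 1, 3, 1, 1 and 1 reads in treated and 2, 0, 0, 0 and 0 in saline mice. Ccl12 and Ccl8 had at most 2 reads in any Illumina STAR library, and Ccl1 had 0 reads in all 10. None of the 4 passed the filter. The antisense gene Gm17268, which overlaps Ccl2, had 0 reads in every table.

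Ccl20, the ligand of Ccr6 and an attractant of lymphocytes and dendritic cells, had 17, 12, 52, 47 and 19 reads in the treated mice and 0 in each saline mouse. Mice ILB_9579 and ILB_9582 stood above the other three. A group sum of 0 may hold up to 3 reads at the 95% level, and against that floor, taken over the 5 saline libraries, Ccl20 was at least 55.4-fold higher with IL-1β (edgeR adjusted p = 9.81e-05). Floors cover counting error only. By fitted log2 fold change, a value that depends on the prior count where saline mice have no reads, Ccl20 ranked 8 of the 3526 genes called higher, ahead of Ccl7 at 67, Ccl2 at 69, Ccl6 at 139 and Ccl9 at 448. Ccl20 lies on chromosome 1, away from every other CC ligand listed (chr1:83113341-83115742, plus strand).

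The genes whose pattern over the 10 libraries was nearest to that of Ccl20 were Irak3, Gbp10 and Slc13a5, by the root mean square difference of log2 levels set to the saline mean, among 10841 genes with a mean of at least 20 reads. A pseudocount of 1 read was added to each level. The differences were 0.536, 0.580 and 0.593, and they depend on that pseudocount, because Ccl20 had no saline reads. The 22.9-fold rise of Irak3 is below the lower bound given for Ccl20. Irak3, a negative regulator of IL-1 receptor signaling, had 140 to 324 reads in treated and 6 to 15 in saline mice. Gbp10, a guanylate-binding protein, had 1300 to 2263 against 67 to 139 reads. Slc13a5, a citrate transporter of hepatocytes, had 228 to 440 against 12 to 23 reads.

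Ccl6 and Ccl9, the ligands of Ccr1 found in rodents, were the members with the most reads. Ccl6 had 385, 594, 210, 439 and 304 reads in the treated mice and 75, 60, 42, 38 and 41 in the saline mice. The groups were far apart, with ILB_9578 highest and ILB_9579 lowest of the treated mice. The log2 fold change was 3.09 ± 0.26 (SE), or 8.53-fold, with an edgeR adjusted p of 4.76e-07. The gene E230016K23Rik overlaps Ccl6 on the other strand and had at most 2 reads in any library of any table.

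Ccl9 was already abundant in saline livers. It had 1669, 1827, 2196, 2068 and 1730 reads in the treated mice and 622, 683, 627, 728 and 645 in the saline mice. Both groups were tight, and the treated mice differed by no more than 1.37-fold in CPM. The log2 fold change of 1.70 ± 0.11 (SE), or 3.24-fold, was the smallest of the 5 called members and had the lowest adjusted p (edgeR, 2.84e-08). Ccl9 (chr11:83386421-83392138) and Ccl6 (chr11:83401384-83406589) lie on the minus strand, 9.25 kb apart. Their transcripts share 69.0% identity over 407 bases.

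The change of Ccl6 was larger than that of its neighbour. The ratio of length-scaled Ccl6 to Ccl9 was 0.391, 0.552, 0.162, 0.360 and 0.298 in treated and 0.205, 0.149, 0.114, 0.0885 and 0.108 in saline mice. The lowest treated mouse, ILB_9579, lay below the highest saline mouse, UNT_9574, so this ratio overlapped between groups. The mean ratio was 0.353 in treated and 0.133 in saline mice, and an exact two-sided permutation test of the log2 ratio gave p = 0.0159. This test was not planned beforehand and was run with the fold changes of both genes known. The same test gave the same p in each of the other 5 tables, which measure the same livers again. Benjamini-Hochberg adjustment over the 6 tests left it at 0.0159, as it must for equal values.

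Ccl3 and Ccl4, the macrophage inflammatory proteins 1α and 1β, flank each other on chromosome 11, 13.2 kb apart on opposite strands and 54.8 kb beyond Ccl6. Ccl3 had 5, 3, 5, 4 and 1 reads in treated and 2, 1, 1, 0 and 1 in saline mice (exact two-sided permutation test of CPM, p = 0.0159). Ccl4 had 3, 3, 1, 2 and 0 against 1, 0, 1, 0 and 0 reads (exact permutation p = 0.0556). Both genes overlapped between groups, and at this depth their levels rest on a handful of reads per liver. With Ion Torrent STAR, Ccl3 had 3, 1, 1, 0 and 1 against 1, 0, 2, 1 and 1 reads (exact permutation p = 0.532), and no difference was detectable.

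Ccl17, an attractant of T cells made by dendritic cells, had 6, 6, 4, 5 and 2 reads in treated mice and 0 in each saline mouse. Against a floor of 3 reads over the saline group it was at least 8.66-fold higher. An exact two-sided permutation test gave p = 0.00794, the smallest that 5 mice against 5 allow. UNT_9574 had no Ccl17 read here but 2, 5 and 4 reads in the Ion Torrent STAR, GSNAP and STAR + Bowtie2 tables, and the groups overlapped in 2 of those. Without any filter on reads, Ccl3 and Ccl17 were also called higher in the Illumina STAR table, which makes 7 of 10 members, against 18.3% of the 19704 genes then tested.

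Ccl5, a ligand made mainly by T and NK cells, had 14, 5, 3, 8 and 5 reads in treated and 4, 5, 10, 3 and 4 in saline mice. The groups overlapped, and the log2 fold change was 0.59 ± 0.44 (SE, edgeR adjusted p = 0.279). It was between 0.20 and 0.62 in the other 5 tables, with edgeR adjusted p between 0.115 and 0.686. The summed level of 13 T and NK cell markers was 1.41 to 4.26 CPM in treated and 3.64 to 5.03 in saline mice, and of the 3 tested only Cd4 was called, lower. Among all genes tested 27.2% were called lower. Cd4 reached 5 reads in 5 saline mice and in 1 treated mouse, so it passed the filter mainly through saline mice.

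Ccl24, an eosinophil attractant made by macrophages, had 10, 16, 9, 13 and 8 reads in treated and 16, 13, 14, 6 and 9 in saline mice. The log2 fold change of 0.13 ± 0.30 (SE, edgeR adjusted p = 0.738) was smaller than its error. It was below 0 in each of the other 5 tables, between -0.29 and -0.09, and was called in none. Its neighbour Ccl26, 6.37 kb away on chromosome 5, had 0 reads in all 10 Illumina STAR libraries.

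**Figure D2:**
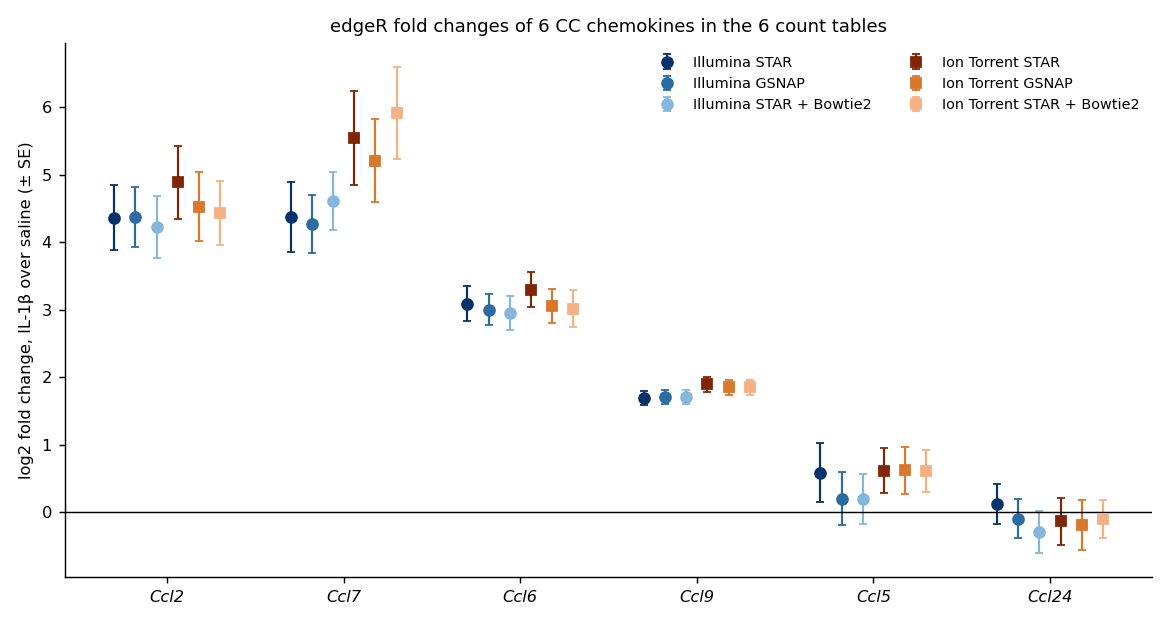
log2 fold change of IL-1β over saline (edgeR, ± SE, 5 mice against 5) for Ccl2, Ccl7, Ccl6, Ccl9, Ccl5 and Ccl24, with circles for the 3 Illumina and squares for the 3 Ion Torrent tables. Ccl20 is not drawn because saline mice had no reads in 5 of the tables. Ccl2, Ccl7, Ccl6 and Ccl9 lie above 0 in every table, and Ccl24 changes sign between tables.

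The same 5 members were called higher in all 6 tables, with no overlap between groups in any of them. Of the 12430 genes tested in every table, 21.6% were called higher in each. With the study's rank-sum test on the Illumina STAR table the 5 members were also called higher, as were 16.4% of genes. The shares of genes called higher by edgeR in the other tables were 26.9% for Illumina GSNAP, 26.0% for Illumina STAR + Bowtie2, 26.0% for Ion Torrent STAR, 22.8% for Ion Torrent GSNAP and 23.5% for Ion Torrent STAR + Bowtie2. The shares with every treated mouse above every saline mouse were, in that order of tables, 20.3%, 19.8%, 19.3%, 17.1% and 17.1%. In the Ion Torrent STAR table, Ccl2 had 81, 253, 107, 79 and 46 against 7, 1, 1, 7 and 5 reads, and its log2 fold change was 4.89 ± 0.53 (SE). Ccl7 had 45, 100, 55, 20 and 14 against 1, 2, 0, 2 and 0 reads there. Treated mice were again clear of saline mice in both genes. Ccl20 had 15, 22, 65, 43 and 12 reads in treated and 0 in saline mice, at least 59.6-fold more against the floor. A single saline read of Ccl20, in UNT_9574, was found over the 6 tables, with Ion Torrent GSNAP.

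Whether the response differed by platform was tested with a platform-by-treatment term in edgeR, fitted to the 20 STAR libraries with the mouse as a block. No member was called, and 1 of 13496 genes was (0.00741%). Ccl9 had an unadjusted p of 0.00679 and an adjusted p of 0.501, with a log2 fold change larger by 0.23 ± 0.07 (SE) on Ion Torrent, while 8.94% of all genes had an unadjusted p below 0.05. The term was 1.12 ± 1.0 for Ccl7, 0.52 ± 0.55 for Ccl2, 0.24 ± 0.16 for Ccl6, 0.03 ± 0.62 for Ccl5 and -0.26 ± 0.33 for Ccl24. For Ccl7, Ccl2 and Ccl5 these errors leave room for differences of more than 2-fold. The term could not be estimated for Ccl20, which had no saline reads on either platform.

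To compare levels between members, CPM were divided by the summed exon length in kb. In saline livers Ccl9 came first at 19.0 ± 1.66 (SD, n = 5) CPM per kb, then Ccl6 at 2.47 ± 0.682 and Ccl24 at 0.778 ± 0.248. In the Illumina STAR table the ranges of Ccl9 and Ccl6 were apart from each other and from the next gene. With Ion Torrent STAR, Ccl6 at 1.03 to 2.26 overlapped Ccl24 at 0.726 to 1.8 in saline livers. Ccl24, Ccl5 (0.470 ± 0.245) and Ccl2 (0.241 ± 0.157) each overlapped the next in order, and the remaining members lay at or below 0.132 on average.

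In treated livers Ccl9 was again first at 61.4 ± 7.88 CPM per kb and Ccl6 was next at 21.2 ± 7.89, with no overlap between them. Ccl2 followed at 5.24 ± 3.19, Ccl7 at 3.0 ± 1.47 and Ccl20 at 2.04 ± 1.31. Their ranges overlapped, although Ccl2 was above Ccl7 in 5 of 5 mice. Ccl24, the third in saline livers, was in position 7 with 0.855 ± 0.25. Ccl17, Ccl5, Ccl3 and Ccl4 averaged between 0.266 and 0.879.

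Summed over the 10 members, the length-scaled level was 23.2 ± 0.758 (SD, n = 5) in saline and 96.1 ± 13 in treated livers. The treated mice ranged from 81.8 to 112 and the saline mice from 22.1 to 24.0, so the groups were far apart. Ccl9 made up 81.6% ± 5.14 (SD) of this sum in saline and 64.4% ± 7.77 in treated mice. The share of Ccl6 was 10.7% ± 3.01 and 21.9% ± 6.37, and that of Ccl2 was 1.04% ± 0.677 and 5.28% ± 2.55.

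**Figure D3:**
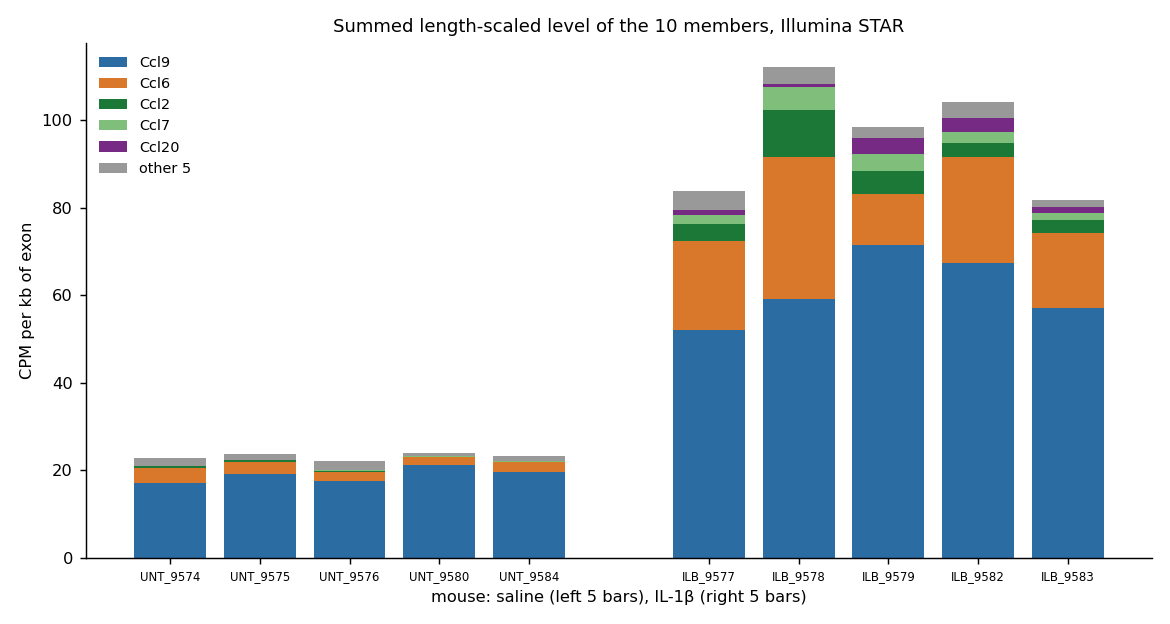
CPM per kb of exon of the 10 members, stacked for each saline mouse (left 5 bars) and each IL-1β-treated mouse (right 5 bars) in the Illumina STAR table. Ccl9 is the largest part of every bar, and the sums are 22.1 to 24.0 in saline and 81.8 to 112 in treated mice.

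The treated mice did not rank alike for all members. ILB_9578 was highest for Ccl2, Ccl6 and Ccl7 in 6 of 6 tables, and ILB_9579 was highest for Ccl9 and Ccl20 in 6 of 6. ILB_9583 was lowest for Ccl2 and Ccl7 in 6 of 6 tables, and ILB_9579 was lowest for Ccl6 in 6 of 6. The 6 tables share the same livers, so these are 6 readings of 1 set of 5 mice. In the Illumina STAR table the ratio of length-scaled Ccl20 to Ccl2 was 0.284, 0.0775, 0.694, 0.991 and 0.461 in the treated mice, a 12.8-fold range. With Ion Torrent STAR it ran from 0.0696 to 0.486, and the lowest mouse was ILB_9578 in both tables.

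Markers of neutrophils rose with the chemokines. Of 12 neutrophil markers 7 were tested in the Illumina STAR table and called higher, but Ngp, Cxcr2, Retnlg and Mmp8 reached 5 reads in no saline mouse and so had to differ to pass the filter. The summed level, all 12 included, was 53.3 to 118 CPM in treated and 2.22 to 6.43 in saline mice. In the Illumina STAR + Bowtie2 table it was 87.4 to 146 in treated and 28.9 to 32.8 in saline mice. Ltf, which encodes the granule protein lactotransferrin, had 321 to 375 reads in treated and 304 to 339 in saline mice in that table, against 2 to 12 and 0 in the Illumina STAR table. Without Ltf the sum there was 53.3 to 117 against 2.65 to 5.22 CPM. S100a9 had 327, 506, 221, 487 and 309 against 15, 13, 16, 5 and 4 reads, and Cxcr2, the receptor through which neutrophils enter tissue, had 33, 77, 28, 61 and 33 against 3, 3, 2, 2 and 1. The listed markers Ly6g, Mpo and Elane were at or near 0, with at most 2 reads of Ly6g, 1 of Mpo and 2 of Elane in any Illumina STAR library. Of 8 monocyte markers 5 were called higher and Cx3cr1 was lower, where 26.9% of all genes tested were higher and 27.2% lower. Among those called higher, Chi3l3 reached 5 reads in no saline mouse and so had to differ to pass the filter. F13a1, also called higher, reached 5 reads in 1 saline mouse. The monocyte marker sum was 22.5 to 42.8 in treated and 9.01 to 12.8 in saline mice.

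After these values were seen, the order of the treated mice was compared between the members and the marker sums. The neutrophil marker sum ranked mice ILB_9578, ILB_9582, ILB_9577, ILB_9583 and ILB_9579 from high to low in the Illumina STAR table, the order of Ccl6. The orders were identical in 3 of 6 tables and shared the highest and the lowest mouse in 6 of 6. Without Ltf, ILB_9583 stood above ILB_9577 in the Illumina STAR table, so the full match there rests on 1 marker. In that table the ratio of Ccl6 reads to neutrophil marker reads ran from 0.391 to 0.503 in treated mice, a 1.29-fold range, while Ccl6 itself varied 2.81-fold. In saline mice that ratio was 0.808 to 1.52, above every treated mouse, as in 5 of 6 tables. In the Illumina STAR + Bowtie2 table saline mice lay below treated mice, at 0.128 to 0.245 against 0.265 to 0.411, and without Ltf above them, at 1.0 to 1.62 against 0.410 to 0.513. Ccl2 and Ccl7 shared their highest mouse with the neutrophil marker sum and their highest and lowest mouse with the monocyte marker sum in 6 of 6 tables. Their full order matched the monocyte marker sum in 0 tables. Ccl24, which was not called, shared the lowest mouse with the monocyte marker sum in 6 of 6 tables and the highest in 5. Its full order matched that sum in 2. Ccl9 and Ccl20 shared the highest mouse with neither sum in any table, and the ratio of Ccl20 to neutrophil marker reads had a 9.66-fold range. With 5 mice no correlation was tested. The part of neutrophils or monocytes in the chemokine levels was not tested.

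**Figure D4:**
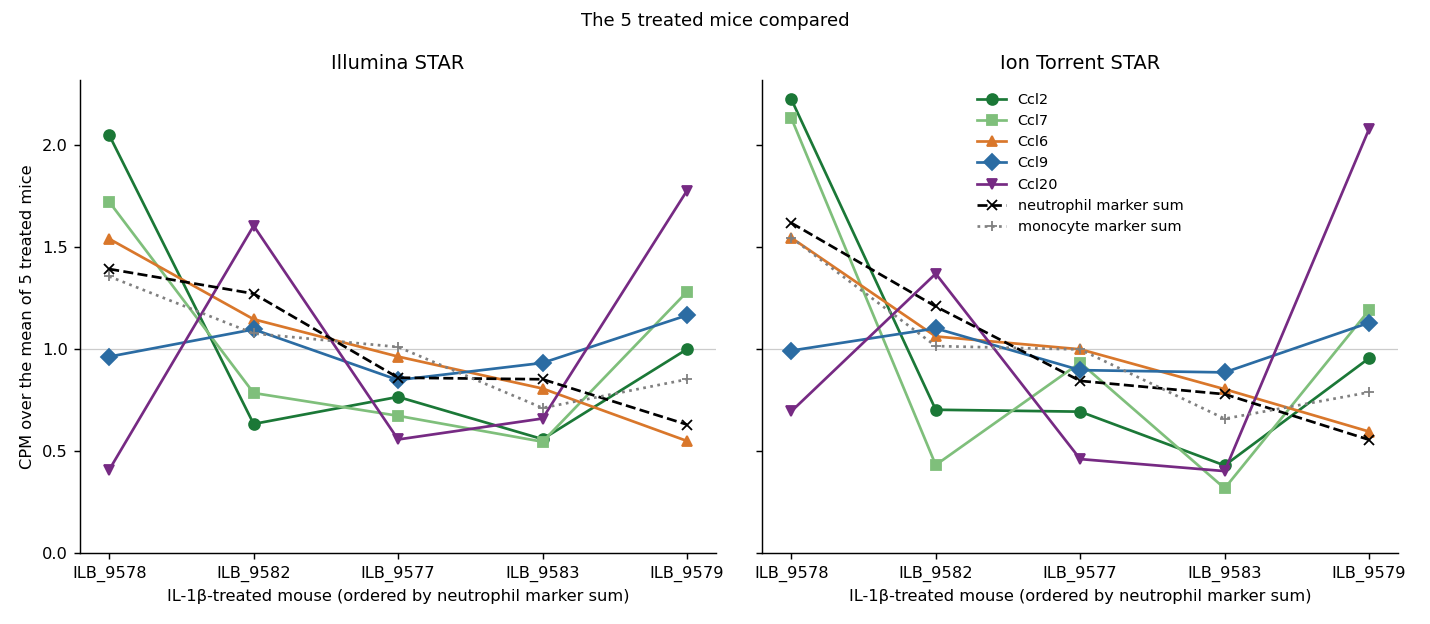
CPM in each of the 5 IL-1β-treated mice, divided by the mean of the 5, for Ccl2, Ccl7, Ccl6, Ccl9, Ccl20 and the summed neutrophil and monocyte markers, in the Illumina STAR (left) and Ion Torrent STAR (right) tables. Mice stand in the order of the neutrophil marker sum, along which Ccl6 falls in both panels, while Ccl20 is highest in ILB_9579 at the right end.

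Markers of other liver cells moved less uniformly. Of 12 Kupffer cell and macrophage markers Marco was higher and Clec4f, Vsig4 and Csf1r were lower, with a sum of 122 to 277 CPM in treated and 182 to 330 in saline mice. Of 4 dendritic cell markers tested Itgax was higher (sum of all 8, 9.91 to 15.5 against 11.1 to 14.3), and of 2 B cell markers tested Cd22 was lower (sum of all 6, 0.906 to 1.87 against 1.86 to 5.26). For 8 liver endothelial markers 2 were higher and 3 lower, and for 8 stellate cell markers 2 were lower. For 6 cholangiocyte markers 3 were higher, and for 7 hepatocyte markers 1 was higher and 3 lower. Among all 13117 genes tested 26.9% were called higher and 27.2% lower. Counts near these shares are not a result about a cell type. All 10 genes of a list of shared IL-1 and NF-κB feedback genes, among them Il1rn and Socs3, were called higher. Their median log2 fold change was 1.87. The groups overlapped for Nfkbia, Nfkbie and Tnfaip3, and Tnfaip3 had 557 reads in ILB_9578 against 48 to 89 in the other treated mice.

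Of the 4 CC chemokine receptors tested, Ccr1 had the largest log2 fold change. It is the receptor of Ccl6 and Ccl9 and a receptor of neutrophils and monocytes. It had 22, 50, 20, 43 and 33 reads in treated and 4, 1, 1, 0 and 4 in saline mice, with no overlap and a log2 fold change of 4.16 ± 0.48 (SE, edgeR adjusted p = 7.16e-06). No saline mouse reached 5 reads, so Ccr1 passed the filter through treated mice alone. Ccr2, the receptor of Ccl2 and Ccl7, had 27, 35, 18, 24 and 12 against 21, 19, 16, 14 and 20 reads, which overlap (log2 fold change 0.54 ± 0.26, edgeR adjusted p = 0.102). In the 3 Ion Torrent tables Ccr2 was called higher, with log2 fold changes of 1.12 to 1.30, and the platform-by-treatment term with STAR was 0.67 ± 0.33 (SE, edgeR adjusted p = 0.563). Ccr2 is also 1 of the 8 monocyte markers.

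Ccr6, the receptor of Ccl20, had 1 read over the 10 Illumina STAR libraries, and Ccr4 and Ccr3 had at most 1 and 3 in any library. Ccl20 rose in livers in which reads of its receptor were at or near 0. Ccrl2, which binds chemerin and is often listed with this family, had 33, 23, 24, 30 and 33 against 13, 15, 16, 12 and 7 reads (log2 fold change 1.35 ± 0.23, edgeR adjusted p = 1.92e-04). In all, 4 of 12 receptors passed the filter, 2 were higher and none lower, where 26.9% of all genes tested were higher and 27.2% lower.

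Of the atypical receptors, which bind chemokines without G protein signaling, 4 of 5 identifiers passed the filter. Darc, now Ackr1, a carrier of CC chemokines on venules and red cells, had 21, 17, 25, 13 and 17 against 9, 12, 4, 13 and 9 reads and was called higher (log2 fold change 1.15 ± 0.29, edgeR adjusted p = 0.00453). Ccrl1, now Ackr4, a scavenger of other CC chemokines, had 0 reads in each treated mouse and 7, 13, 6, 9 and 9 in saline mice. That is at least 13-fold lower against a floor of 3 reads over the treated group (edgeR adjusted p = 9.15e-05). Ccrl1 passed the filter through saline mice alone. It overlaps Acad11 on the other strand and the other Ccrl1 identifier on its own strand. In Illumina GSNAP it missed the filter, with 0 reads in each treated mouse and 10, 13, 4, 12 and 11 in saline mice. It also missed the filter in Ion Torrent STAR, with 1 read in ILB_9577 and 7, 10, 10, 4 and 6 in saline mice. Ccbp2, now Ackr2, the scavenger of inflammatory CC chemokines, had 8, 3, 13, 16 and 13 against 21, 12, 18, 17 and 17 reads and was not called (log2 fold change -0.50 ± 0.33, edgeR adjusted p = 0.220), while it was called lower in the 3 Ion Torrent tables. Its platform-by-treatment term with STAR was -0.49 ± 0.40 (SE, edgeR adjusted p = 0.724). Cxcr7 was not called in the Illumina STAR table.

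Most of the other CC ligands had few or no reads. Of 15 identifiers 7 had 0 reads in all 10 Illumina STAR libraries and 2 passed the filter, Ccl25 and Ccl27a. Ccl27a, an epithelial chemokine, had 25, 21, 22, 32 and 23 reads in treated and 40, 46, 50, 36 and 55 in saline mice and was called lower (log2 fold change -0.71 ± 0.19, edgeR adjusted p = 0.00632). Il11ra1 overlaps it on the other strand, and without strand their reads cannot be told apart. Ccl25 was not called (log2 fold change 0.00 ± 0.20). The median log2 fold change was -0.35 over these 2 tested ligands, 0.94 over the tested receptors and 0.01 over the tested atypical receptors. It was 3.09 over the tested members. Members and lists were chosen with earlier results of these data known, so these medians are not a test between lists. They also include Ccl7, Ccl20, Ccr1 and Ccrl1, which passed the filter through 1 group alone.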

How the data were processed

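Liver RNA of 10 mice gave 20 libraries. The authors aligned reads with GSNAP, STAR (2.5.1b) or STAR plus Bowtie2 (2.2.9), per their processing notes to mm9, and with PORT removed rRNA and mitochondrial reads and re-sampled libraries within each table. The deposited values are whole-number counts per Ensembl gene, 60 columns in all. Whether an Illumina count is a read or a read pair, and whether counting used strand, is not given in the sources used here.

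Genes reaching 5 reads in at least 5 of a table's 10 libraries were tested with edgeR 4.0.16 (R 4.3.3) after TMM scaling, by the quasi-likelihood test with Benjamini-Hochberg adjustment at 0.05. Libraries from separate mice are the replicates. The study's own rank-sum test, limma-voom (limma 3.58.1) and DESeq2 1.42.0 were alternatives, with other filters, no TMM and each mouse left out in turn. The platform-by-treatment term has the mouse as a block because both libraries come from 1 RNA, and deviations within a pair correlated at 0.199 to 0.728. Single values were compared with exact permutation tests.

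Members and gene lists were chosen with earlier results of these data known. The rule for other named genes takes the listed ligands, receptors and markers and the 3 genes nearest to the member with the largest rise. One listed gene is counted with its list but is not reported here. Positions are Ensembl gene models on NCBIM37, which hold 37310 of 37681 identifiers. Transcripts were compared with BLAST+ 2.17.0. On simulated counts for the Illumina STAR comparison (13117 genes), edgeR recovered 153, 191 and 200 of 200 changed genes at log2 changes of 1, 2 and 3, with 8, 10 and 3 false calls. The 200 genes were drawn at random from all genes tested, so recovery of genes with few reads was not measured. They are also a far smaller share than in the data, where 26.9% of genes were called higher and 27.2% lower.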

Additional observations from a re-analysis of the deposited data

Results flagged for a closer look

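Of 18 groups of 5 mice checked for a single outlying mouse among members by CPM, 1 was found. Ccl5 in UNT_9576 was at 0.858 CPM (10 reads) in the Illumina STAR table, while the other 4 saline mice were at 0.266 to 0.426. The gap to the nearest mouse was 0.729 of the group's range, above Dixon's critical value of 0.71 for 5 samples, and chance passes it in about 1 group of 20. In the Ion Torrent STAR table the same mouse had 16 reads of Ccl5 and the other saline mice 10 to 13.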

How the results depend on the processing

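The 5 called members stayed 5 with DESeq2, limma-voom, the rank-sum test, the stricter filter, an absolute log2 fold change above 1, no TMM, every mouse left out and each of the other 5 tables, and were 7 with no filter. In the other 5 tables the count of members called in all of them was 5 in the main fit and under each alternative run. For those tables, all of the alternatives were chosen after seeing the data. Scaling without TMM moved the median log2 fold change of all genes from 0.00 to -0.12 and changed no member's call. Over all alternatives the log2 fold change was 3.93 to 4.89 for Ccl2, 4.06 to 5.92 for Ccl7, 2.88 to 3.30 for Ccl6, 1.57 to 1.90 for Ccl9 and 0.20 to 0.95 for Ccl5. That of Ccl24, not called anywhere, changed sign, to -0.0015 without TMM, -0.034 without ILB_9578, -0.029 without UNT_9580 (-0.034 to 0.237 over all mice left out), -0.091 in Illumina GSNAP, -0.29 in Illumina STAR + Bowtie2, -0.14 in Ion Torrent STAR, -0.19 in Ion Torrent GSNAP and -0.10 in Ion Torrent STAR + Bowtie2, and the cause was not tested. The 5 other ligands and receptors called (3 higher, 2 lower) were 9 (6 higher, 3 lower) in Ion Torrent STAR + Bowtie2, 7 (5 higher, 2 lower) in Ion Torrent STAR and in Ion Torrent GSNAP, 4 (3 higher, 1 lower) in Illumina GSNAP and 5 to 6 with each mouse left out. The comparisons across tables, and the neutrophil marker sum without Ltf, were chosen after seeing the data, and the cause was not tested. For the platform-by-treatment term, 0 members were called with the mouse as a replicate block and 0 without it, and also with the other aligners, DESeq2 and each mouse left out.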
